A study of Saccharomyces cerevisiae with 180 samples.

Results

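The histidine synthesis genes of Saccharomyces cerevisiae are HIS1, HIS2, HIS3, HIS4, HIS5, HIS6 and HIS7, and they were taken by gene symbol from the deposited table. Each of the 7 genes had 1 probe, among 5645 probes with a single gene symbol and 5605 genes in all. Transcripts were measured as log2 ratios on 180 arrays with 2 colours, made from 90 haploid cultures with 2 arrays per culture and the dyes exchanged. Every culture was compared with the same pool of RNA from the laboratory strain BY4716, so a value of 0 is the level in that pool.

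The cultures were 86 segregants, each a haploid offspring of BY4716 and the vineyard derivative RM11-1a, together with 2 cultures of the vineyard strain RM11 and 2 of BY4716. BY4716 is of the S288c background. As background, it is of mating type alpha and without LYS2, whereas RM11 is of mating type a, with HO, URA3 and LEU2 deleted. In the arrays, 14 of 14 strain marker genes had the sign that these genotypes require. LYS2 and STE6 had no value in BY4716 cultures, so for them RM11 was set against the pool, at 5.4 and 4.08. Growth medium is not given in the labels used here. Segregants carry titles such as 7-5-d, and what the numbers in them stand for is not stated either. An array held between 3769 and 6570 probe values, and the number of arrays and cultures sets the precision. The labels call the parental cultures independent.

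Histidine is made from phosphoribosyl pyrophosphate and ATP in a linear pathway, and the by-product AICAR feeds into purine synthesis. Many of its genes are activated in yeast by Gcn4, the transcription factor of the general amino acid control, which acts when amino acids run short. Bas1 and Pho2 are known to link several of them to the adenine genes.

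In the order of the pathway, HIS1 (YER055C) encodes ATP phosphoribosyltransferase, the committed step. HIS4 (YCL030C) encodes a multifunctional enzyme of early steps and of the last one. HIS6 (YIL020C) encodes the isomerase, and HIS7 (YBR248C) the imidazole glycerol phosphate synthase, whose reaction releases AICAR. HIS3 (YOR202W) encodes imidazoleglycerol-phosphate dehydratase, HIS5 (YIL116W) histidinol-phosphate aminotransferase and HIS2 (YFR025C) histidinolphosphatase.

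Among segregants the 7 transcripts differed widely in how much they varied. HIS4 ranged from -2.24 to 2.48 with a median of -0.10, a 26.3-fold range, and 17 segregants lay above 1 and 18 below -1. HIS5 ranged from -0.96 to 3.13 with a median of 0.38, a 17.1-fold range, with 17 segregants above 1. HIS3 ranged from -0.96 to 2.57 with a median of 0.02, an 11.5-fold range, with 15 segregants above 1. These 3 genes, which act early, late and between, were the most variable of the pathway.

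HIS1 ranged from -1.13 to 1.72 with a median of 0.05, and HIS7 from -0.63 to 2.03 with a median of 0.02. HIS6 ranged from -1.14 to 1.19 with a median of 0.04. HIS2 ranged from -0.56 to 0.92 with a median of -0.15, a 2.80-fold range and the narrowest of the 7. The segregant SD was 1.20 for HIS4, 0.806 for HIS5, 0.767 for HIS3, 0.555 for HIS1, 0.497 for HIS7, 0.295 for HIS6 and 0.287 for HIS2. The median SD was 0.252 over all 5567 genes measured in at least 80 percent of the segregants. A larger SD than that of HIS4 was found for 1.35 percent of these genes, and a larger SD than that of HIS2 for 39.7 percent. HIS6 and HIS2 thus lay near the middle of the genes and the other 5 in the upper part.

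**Figure D1:**
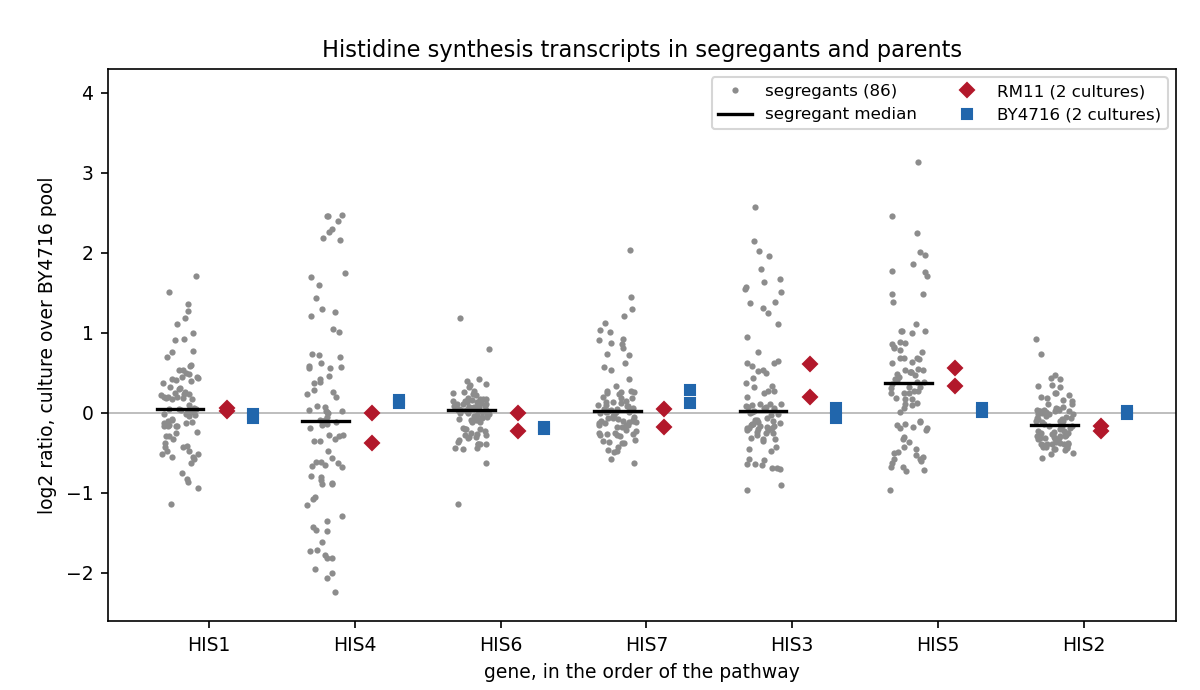
Log2 ratio over the BY4716 pool (vertical axis) of each histidine gene in the order of the pathway (horizontal axis), with 1 grey point per segregant, a bar at the segregant median, red diamonds for the 2 RM11 cultures and blue squares for the 2 BY4716 cultures. HIS4 spreads from -2.24 to 2.48 over segregants, while its parental cultures lie between -0.38 and 0.16.

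The 2 arrays of a culture gave like values for most of the pathway. Their correlation over segregants was 0.991 for HIS4, 0.911 for HIS7, 0.879 for HIS5, 0.856 for HIS3, 0.84 for HIS1, 0.804 for HIS2 and 0.666 for HIS6, against a median of 0.64 over all genes. HIS6 was therefore the least repeatable of the 7. A value from 1 array only was used for HIS3 in 6 segregants, for HIS6 in 5, for HIS7 in 2 and for HIS1 in 1.

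The parents were compared to ask which of these genes differ between the strains themselves. HIS5 was the single histidine gene that passed as higher in RM11. Its log2 ratio was 0.56 and 0.34 in the RM11 cultures, against 0.02 and 0.06 in the BY4716 cultures, with no overlap. The difference was 0.41 (SE 0.10), a 1.33-fold higher level in RM11, with a limma Benjamini-Hochberg adjusted p of 0.038 over the 3256 genes that had values on each of the 8 parental arrays. Of 4 histidine genes tested, 1 passed as higher and 0 as lower, where 18.2 percent of all genes passed as higher and 8.54 percent as lower (26.7 percent in either direction). The median difference over all genes was 0.10. HIS5 no longer passed when arrays were centred on their medians (0.36, adjusted p 0.0602) or quantile normalized (0.27, adjusted p 0.105), or when either BY4716 culture was left out (adjusted p 0.3 without replicate 1 and 0.241 without replicate 2).

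HIS1 was at 0.02 and 0.06 in RM11 cultures, against -0.07 and -0.02 in BY4716 cultures, a difference of 0.08 (SE 0.08, limma adjusted p 0.46). HIS4 was at 0.005 and -0.38 in RM11 cultures, against 0.125 and 0.16 in BY4716 cultures, a difference of -0.33 (SE 0.14, limma adjusted p 0.144). HIS2 was at -0.16 and -0.23 in RM11 cultures, against -0.01 and 0.03 in BY4716 cultures, a difference of -0.20 (SE 0.08, limma adjusted p 0.123). For these 3 genes the parental groups did not overlap, and the differences missed the threshold. Without RM11 replicate 1, HIS4 (-0.52, limma adjusted p 1.36e-06) and HIS2 (-0.24, limma adjusted p 0.0354) passed as lower in RM11, with a lone RM11 culture assumed to vary like BY4716. Without RM11 replicate 2 the differences were -0.14 for HIS4 (limma adjusted p 0.197) and -0.17 for HIS2 (limma adjusted p 0.116).

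HIS3, HIS6 and HIS7 lacked a value on at least 1 parental array. They were tested in a fit over 5169 genes with a value in all 4 parental cultures, where 18.3 percent of genes and 0 of the 7 histidine genes passed. HIS3 was at 0.20 and 0.61 in RM11 cultures, against -0.06 and 0.06 in BY4716 cultures, each from 1 array, a difference of 0.40 (SE 0.16, limma adjusted p 0.145). HIS7 was at 0.05 and -0.18 in RM11 cultures, against 0.29 and 0.13 in BY4716 cultures, a difference of -0.27 (SE 0.12, limma adjusted p 0.174). HIS6 was at -0.22 and -0.005 in RM11 cultures, against -0.17 and -0.20 in BY4716 cultures, where the groups overlapped (difference 0.07, SE 0.11, limma adjusted p 0.655). In this fit the adjusted p of HIS5 was 0.059.

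The BY4716 cultures themselves lay near the pool, which is RNA of the same strain. By limma, 0 of 4 histidine genes and 0.0 percent of 3256 genes passed against the pool, with 616 genes at an unadjusted p under 0.05. The mean of HIS4 in BY4716 was 0.14 above the pool, and HIS1, HIS2 and HIS5 lay between -0.04 and 0.04. In the larger gene set HIS7 lay 0.21 above the pool and HIS6 at -0.18 (limma adjusted p 0.327 and 0.331), both farther than HIS4. The pool is 1 sample, so its own spread is not in this test.

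The variance over segregants was set against that of repeat cultures of a parent, to ask whether the segregants vary more than repeat cultures do. All 4 histidine genes that could be tested passed, by a one-sided F test with limma-moderated variance, against 58.6 percent of 3255 genes. The segregant SD of HIS4 was 8.54 times its error SD of 0.140 (adjusted p 0.0025). This ratio was 7.95 for HIS5 (adjusted p 0.00288), 7.10 for HIS1 (0.00334) and 3.58 for HIS2 (0.0178). Among genes with a value in all 4 parental cultures, 27.6 percent passed. There HIS3 (adjusted p 0.0187) and HIS7 (0.0254) passed, whereas HIS6 had an adjusted p of 0.0537. The error rests on 2 cultures per parent, and the share of all genes passing moved widely when 1 was left out. It was 159 of 3363 and 143 of 3615 genes without BY4716 replicate 1 and 2, and 3333 of 3333 and 3730 of 3731 genes without RM11 replicate 1 and 2. HIS2 no longer passed without BY4716 replicate 1 (adjusted p 0.142) or replicate 2 (0.145), and HIS1 had an adjusted p of 0.0542 without replicate 2.

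Many segregants lay outside the levels of both parents. For HIS4, 27 segregants were above the higher parental mean and 32 below the lower one by over 2 error SDs, 59 of 86 in all. For HIS1 the counts were 35 above and 22 below, for HIS5 28 above and 22 below, and for HIS2 13 above and 20 below. The median over genes tested was 19 segregants outside both parents. Among genes that passed the variance test but not between parents, as HIS1, HIS2 and HIS4 did, it was 31. The 33 in all for HIS2 lie near that median. In the set with a value in all 4 parental cultures the counts above and below were 17 and 16 for HIS3, 27 and 5 for HIS6, and 17 and 11 for HIS7, against a median of 16 in all. These counts are a description without a test.

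Segregant means were then set against the midpoint between the parents. None of the 4 histidine genes tested passed (0 of 4), against 9.92 percent of 3255 genes by a moderated test with limma variances. The segregants exceeded the midpoint by 0.18 (SE 0.10, adjusted p 0.208) for HIS5 and by 0.12 (SE 0.07, adjusted p 0.259) for HIS1. The differences were -0.01 (SE 0.15, adjusted p 0.969) for HIS4 and -0.02 (adjusted p 0.856) for HIS2. Those of HIS3, HIS6 and HIS7 were 0.04, 0.14 and 0.07 in the larger gene set, where 6.2 percent of genes and 0 of 7 histidine genes passed. HIS4 thus combined segregants far above and far below both parents with a mean close to the midpoint.

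HIS3 divided the segregants unequally. A mixture of 2 normal components placed 70 segregants around -0.07 and 16 around 1.61, with a common SD of 0.396 and means 4.25 SDs apart. The smaller group was 18.6 percent of segregants (95% Clopper-Pearson interval 11.0 to 28.5 percent), and 2 components were favoured by a BIC gain of 27.5. The highest segregant of the lower group was at 0.76 and the lowest of the upper group at 0.95, so the groups abut without a wide gap. Assignment was less certain for 2 segregants. With a limit of at least 20 percent in the smaller group, 0 of 7 histidine genes and 1.08 percent of 5567 genes were called as 2 clusters. With a limit of 10 percent, HIS3 was called, as were 1.38 percent of genes.

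**Figure D2:**
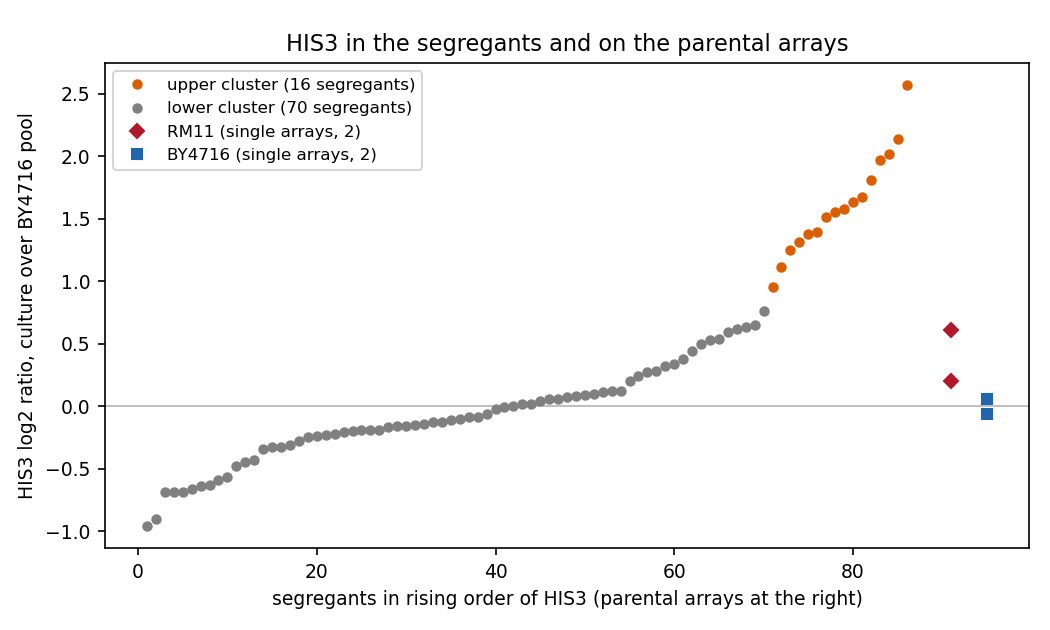
HIS3 log2 ratio over the BY4716 pool (vertical axis) for the 86 segregants in rising order (horizontal axis), with orange for the upper and grey for the lower group of the mixture, and red diamonds and blue squares for the single RM11 and BY4716 arrays. The upper 16 segregants start at 0.95, above the 4 parental arrays, of which the highest is an RM11 array at 0.61.

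The clarity of the HIS3 division varied with the processing. With arrays centred on their medians it was again 70 and 16 segregants with means 4.27 SDs apart, and with segregants measured on both arrays only it was 64 and 16 with means 4.28 SDs apart. After quantile normalization the groups held 66 and 20 segregants with means 3.18 SDs apart, and with the Cy5-titled arrays alone 56 and 28 with means 2.12 SDs apart. The Cy3-titled arrays alone gave 67 and 15 with means 3.64 SDs apart. HIS7 was the histidine gene with the next largest gain, with 68 and 18 segregants, means 2.62 SDs apart and a BIC gain of 22.6. For the other 5 genes the gain was between -3.83 and 5.59. Segregants 8-1-a, 10-1-c, 13-2-c and 15-5-b, whose chromosome 2 genes had medians of 0.64 to 0.82, had HIS7 at 1.44, 1.03, 0.54 and 0.73. They lie nearer the upper HIS7 mean of 0.83 than the lower one of -0.08, and the mixture was not fitted without them.

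Segregants high in HIS3 were mostly also high in the other genes of the pathway except HIS6. Of the 16 segregants with the highest HIS4, 15 were in the upper HIS3 group, and this count was 13 for HIS2, 13 for HIS7, 12 for HIS1, 11 for HIS5 and 3 for HIS6. The upper HIS3 group held 18.6 percent of all segregants. These counts were not made for genes outside the pathway and were not tested. Segregant 7-5-d had the highest HIS3, 2.57, with HIS4 and HIS5 both at 2.46 and HIS7 at 2.03, while its HIS6 was 0.09. Segregant 14-1-b had HIS3 at 2.02, HIS4 at 2.47 and HIS1 at 1.72, with HIS6 at -0.05. Segregant 4-4-d was an exception within the upper group, with HIS3 at 0.95 and HIS4 at -0.13. The upper group came from 9 of the 18 first numbers in the segregant titles, and 5 of its segregants carry the number 14.

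Other genes placed some of these segregants in an upper group too. ARO3, which encodes an enzyme at the entry to aromatic amino acid synthesis, shared 14 of its 15 upper segregants with HIS3, 87.5 percent of the HIS3 group and 93.3 percent of its own. MCH1, a gene of the monocarboxylate permease family, shared 11 of 11, and ORT1, which encodes the mitochondrial ornithine carrier, 13 of 16. UGA3, which encodes a transcription factor of GABA use, shared 10 of 10, and MPC2, which encodes a subunit of the mitochondrial pyruvate carrier, 10 of 11. The group was also set against the clusters of 4 strain markers and of ARG7, an arginine gene, which were chosen after values were seen. Of 44 segregants in the lower LEU2 cluster, 14 were in the upper HIS3 group (31.8 percent), against 2 of 42 in the higher LEU2 cluster (4.76 percent). For URA3 it was 11 of 45 in the lower and 5 of 41 in the higher cluster, and for LYS2 6 of 45 and 10 of 36. For STE2, expressed in a cells, it was 4 of 46 in the lower and 12 of 40 in the higher cluster. For ARG7 it was 1 of 66 in the lower and 15 of 20 in the higher group of its mixture. ARG7 was itself not called as 2 clusters at the limit of 20 or of 10 percent, since its means were 3.53 SDs apart. These overlaps were not tested, since the groups were defined from the values themselves.

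Over the 86 segregants, HIS1, HIS2, HIS4, HIS5 and HIS7 moved together. HIS1 and HIS4, the first enzymes of the pathway, had a Pearson r of 0.889 (95% interval 0.834 to 0.926) and a Spearman rho of 0.847. Without the 2 segregants farthest from the median of HIS1 r was 0.877, and within first title numbers it was 0.882. HIS4 and HIS7 had r = 0.811, HIS4 and HIS5 0.765, and HIS1 and HIS7 0.765. The other 6 pairs of these 5 genes had r between 0.57 for HIS2 with HIS5 and 0.668 for HIS2 with HIS7. All 10 had a permutation p of 1e-05, the smallest that 100000 permutations can give, and an adjusted p of 0.000181 over 38957 relations of a histidine gene with any gene. Positive relations passed for 11.0 percent of other genes with HIS1, 11.6 percent with HIS2, 12.7 percent with HIS4, 11.0 percent with HIS5 and 12.4 percent with HIS7. All 10 pairs had r over 0.5, as did 2.49 percent of the 15492961 pairs of all genes.

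**Figure D3:**
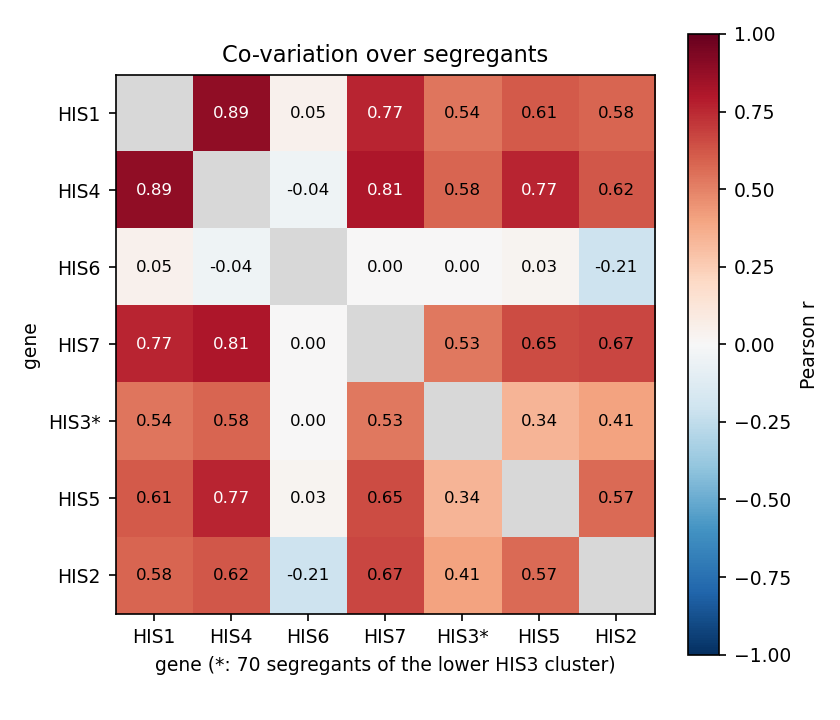
Pearson r over segregants for each pair of histidine genes, with both axes in the order of the pathway and red for positive and blue for negative r. Pairs with HIS3 (asterisk) are over the 70 segregants of its lower group. HIS6 stands out as a pale row and column, with r between -0.21 and 0.05.

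HIS6 did not share this pattern. Its r was 0.046 with HIS1 (adjusted p 0.811), -0.04 with HIS4 (95% interval -0.25 to 0.173, adjusted p 0.835), 0.026 with HIS5 (adjusted p 0.894) and 0.004 with HIS7 (adjusted p 0.986), by permutation. With HIS2 it was -0.208 (permutation p 0.0561, adjusted p 0.153). Without the 2 segregants farthest from the median of HIS2 it was -0.253 (unadjusted permutation p 0.0193). Within first title numbers it was -0.296, where the permutation shuffled segregants without regard to the number, so its p is not given. The isomerase thus had no relation that passed with HIS4 or HIS7, the genes beside it in the pathway order, nor with HIS1, HIS2 or HIS5. HIS6 was also the gene most tied to the first principal component of all genes, which held 18.7 percent of the variance. Its absolute r with that component was 0.706, against 0.367 for HIS2, 0.282 for HIS3 and 0.15 or less for the other 4. The first principal component was removed as an alternative, and the r of HIS2 and HIS6 was then 0.078.

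**Figure D4:**
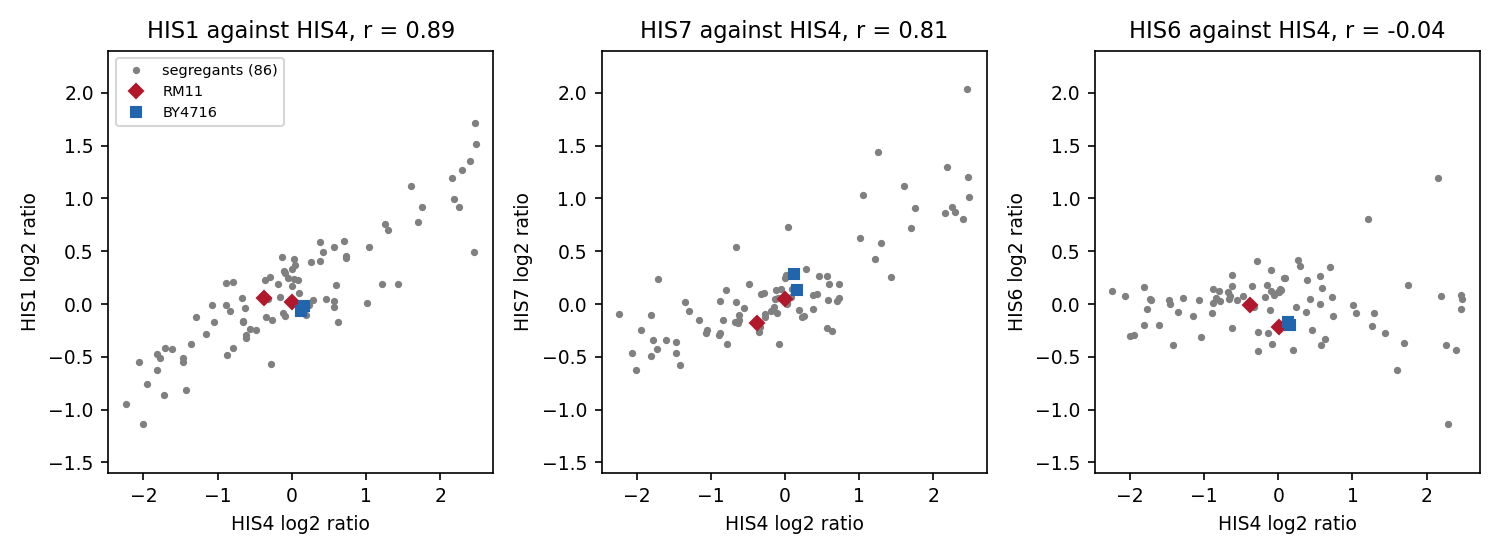
HIS1, HIS7 and HIS6 (vertical axes) against HIS4 (horizontal axes) in log2 ratio over the BY4716 pool, with grey points for the 86 segregants, red diamonds for RM11 and blue squares for BY4716. HIS1 (r = 0.89) and HIS7 (r = 0.81) lie along a rising band, and HIS6 (r = -0.04) lies flat, with 1 segregant at 1.19 and 1 at -1.14 apart from the rest.

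Because HIS3 divided the segregants, its relations were computed within each group. In the 70 segregants of the lower group its r was 0.585 with HIS4, 0.539 with HIS1 and 0.527 with HIS7 (adjusted permutation p 0.000181 each), 0.405 with HIS2 (0.004) and 0.341 with HIS5 (0.0205). Positive relations with HIS3 passed for 2.68 percent of other genes there, and negative ones for 1.57 percent. With HIS6 r was 0.004 (adjusted p 0.986). In the 16 segregants of the upper group r was 0.657 with HIS2 (unadjusted permutation p 0.00609), 0.618 with HIS7 (0.0114), 0.552 with HIS4 (0.0284), 0.461 with HIS5 (0.0721), 0.12 with HIS1 (0.659) and -0.239 with HIS6 (0.37). Without the 2 segregants farthest from the median the upper-group r fell to 0.132 with HIS7 and 0.258 with HIS4, so these relations rest on those segregants. Within first title numbers r was 0.707 with HIS1, 0.599 with HIS2 and 0.578 with HIS4. It was 0.52 with HIS5, 0.493 with HIS7 and -0.095 with HIS6. Numbers 7, 13, 15, 17 and 18 hold 1 upper segregant each, which has no deviation left once the mean of its number is subtracted. The permutation shuffled all 16 without regard to the number, so its p values are not given and no contrast is drawn from them. The groups were chosen on HIS3 itself, which narrows its range in each.

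The genes most like each histidine gene over segregants included several of other amino acid pathways. For HIS1 these were SUT1 (r = 0.923), a transcription factor gene known for sterol uptake, HOM3 (0.858), which encodes aspartate kinase, and TRP3 (0.845), of tryptophan synthesis. For HIS4 they were SUT1 (0.892), HOM2 (0.864), which encodes aspartate semialdehyde dehydrogenase, and HOM3 (0.863). For HIS7 they were RIB5 (0.869), which encodes riboflavin synthase, TRP3 (0.842) and HOM3 (0.837). HOM2 and HOM3 act in the common path to methionine and threonine.

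For HIS5 the most similar genes were MCH4 (r = 0.796), a monocarboxylate permease family gene, ATR1 (0.768), which encodes a multidrug transporter, and HOM2 (0.762). For HIS2 they were TMT1 (0.748), which encodes trans-aconitate methyltransferase, CAF16 (0.744) and STR2 (0.73), which encodes cystathionine gamma-synthase. For HIS3, in the 70 lower segregants, they were HOM2 (0.718), RIB5 (0.671) and ALD5 (0.668), which encodes a mitochondrial aldehyde dehydrogenase. For HIS6 they were FAF1 (0.789), of ribosomal RNA processing, TRM1 (0.779), which encodes a tRNA methyltransferase, and GIR2 (0.773). Without the first principal component, these 3 values for HIS6 were 0.578, 0.507 and 0.485. None of the 3 genes most like HIS6 was among the most similar of any other histidine gene.

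Arginine genes, most of them targets of the same general control, moved with the histidine genes other than HIS6. All 7 measured arginine genes passed as positively related to each of HIS1, HIS2, HIS3, HIS4, HIS5 and HIS7, with a median r of 0.744 for HIS4 and 0.482 for HIS3. With HIS6 the median was -0.221, and 0 of 7 passed. ARG1, which encodes argininosuccinate synthase, had r = 0.856 with HIS4. Of the 8 lysine genes, 8 passed with HIS1, HIS2, HIS4, HIS5 and HIS7 (median r 0.499 to 0.634), 1 with HIS3 and 0 with HIS6. Of the 10 aromatic genes, 8 passed with HIS1, HIS4, HIS5 and HIS7, 9 with HIS2, 5 with HIS3 and 1 with HIS6. Over all genes the median r lay between -0.04 and 0.026. Among all other genes, positive relations passed for 2.68 percent with HIS3, 25.5 percent with HIS6 and 11.0 to 12.7 percent with the rest.

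**Figure D5:**
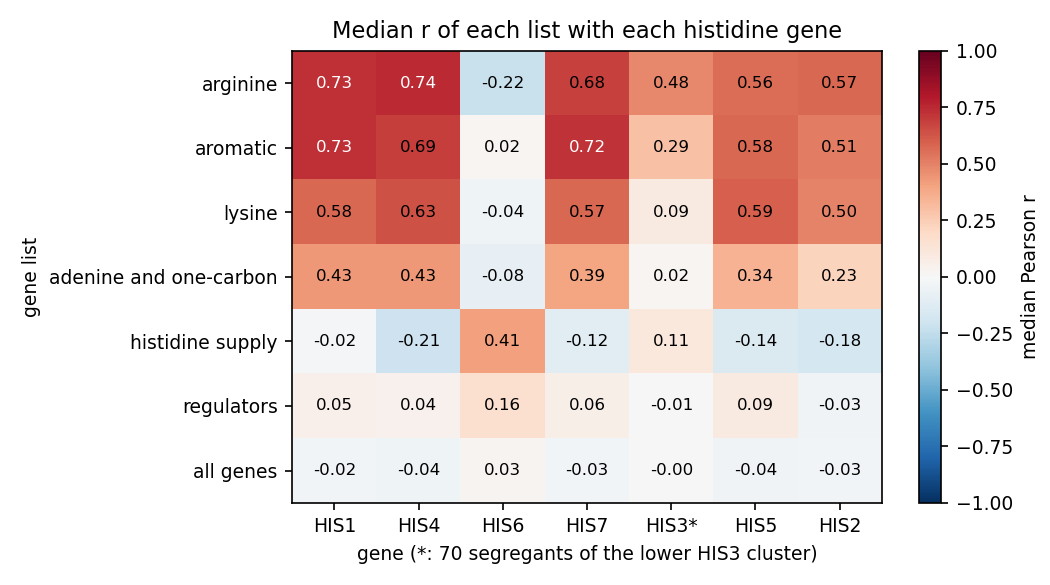
Median Pearson r over segregants (colour and number) between each histidine gene (horizontal axis, in the order of the pathway) and the genes of each list (vertical axis), with all genes in the bottom row and HIS3 (asterisk) over the 70 segregants of its lower group. Arginine genes have a median of 0.74 with HIS4 and -0.22 with HIS6, and the genes of histidine supply have a median of 0.41 with HIS6.

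Adenine and one-carbon genes, which the AICAR by-product and Bas1 tie to histidine synthesis, were related most often to HIS1 and HIS4, and also to HIS5 and HIS7. The arginine, lysine and aromatic genes had higher median r with HIS1 and HIS4, between 0.577 and 0.744. Of the 15 measured adenine and one-carbon genes, 14 passed with HIS1 (median r 0.434) and 14 with HIS4 (0.43). With HIS7 11 passed, with HIS5 11, with HIS2 6 and with HIS3 2. Among all other genes, 2.68 percent passed as positive with HIS3 and 11.0 to 12.7 percent with each of the other 5. With HIS6, 0 passed as positive and 5 as negative, where 25.5 percent of all genes passed as positive and 17.9 percent as negative. ADE16 had the lowest r with HIS6, -0.558, whereas ADE17 had -0.213 and did not pass (permutation adjusted p 0.142). ADE16 was also the listed gene that did not pass with HIS1 (r = -0.113) or HIS4 (r = -0.048).

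Genes that supply or use histidine or its precursor were related to HIS6 in the main. Of 7 such genes, 6 passed as positively related to HIS6 (median r 0.411), where 25.5 percent of all genes did. HTS1, which encodes histidyl-tRNA synthetase, had r = 0.66 with HIS6, and PRS1, of phosphoribosyl pyrophosphate synthesis, 0.638. Between 0 and 2 of the 7 passed as positive with any other histidine gene, where 2.68 to 12.7 percent of all other genes did. As negative, 2 passed with HIS2, 1 with HIS1 and 1 with HIS4, where 16.2, 9.08 and 14.8 percent of all other genes did. HIP1, which encodes the histidine permease, was the gene that did not pass with HIS6 (r = 0.104, permutation adjusted p 0.533). It passed with HIS5 (r = 0.365) and HIS7 (r = 0.366). HIS6 was tied to the first principal component, and the values of this list were not recomputed without it.

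The 8 regulators had a median r near 0 with most histidine genes, 0.048 with HIS1 and 0.042 with HIS4. Of the 8, 3 passed as positive with HIS1, 3 with HIS4, 2 with HIS5, 2 with HIS7, 1 with HIS2, 3 with HIS6 and 0 with HIS3, and 1 passed as negative with HIS2 and 1 with HIS6. Among all other genes, 25.5 percent passed as positive with HIS6, 2.68 percent with HIS3 and 11.0 to 12.7 percent with the rest. As negative, 16.2 percent passed with HIS2 and 17.9 percent with HIS6. The positive count with HIS2 and both negative counts thus lie near these shares. GCN4 transcript had r = 0.561 with HIS1, 0.423 with HIS4, 0.321 with HIS5 and 0.47 with HIS7. BAS1 passed with all of HIS1, HIS2, HIS4, HIS5, HIS6 and HIS7, at r between 0.31 and 0.496, and had r = 0.229 with HIS3. BAS1 thus passed with HIS6, whereas GCN4 did not (adjusted p 0.61). PHO2 had r = -0.428 with HIS6 (adjusted p 0.000667) and between -0.137 and 0.115 with the others, none of which passed. GCN3, which encodes a subunit of translation initiation factor eIF2B, had r = -0.288 with HIS2 (adjusted p 0.0361) and 0.59 with HIS6. A transcript level says nothing about translation, through which Gcn4 is known to be controlled.

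In the parents, several of these genes differed while most histidine genes did not pass. GCN4 was higher in RM11 by 0.33 (limma adjusted p 0.0437), and GCN2, which encodes the kinase that senses uncharged tRNA, was lower by 1.27 on the log2 scale (-1.27, limma adjusted p 0.000612). GCN1, whose product helps to activate Gcn2, had a difference of -0.50 (limma adjusted p 0.0106). Of 6 arginine genes tested, 0 passed as higher and 4 as lower in RM11, led by ARG3 (-1.19) and CPA1 (-1.17), and of 12 adenine and one-carbon genes 0 passed as higher and 6 as lower, led by GCV2 (-1.30). Over all genes 18.2 percent passed as higher and 8.54 percent as lower. Of 7 genes of histidine supply, 1 passed as higher, PRS3 (0.37, limma adjusted p 0.0414), and 0 as lower. None of the lysine genes (0 of 6) or the aromatic genes (0 of 8) passed. Without BY4716 replicate 1 or 2 the count of all genes passing fell to 199 or 203. ARG3 and CPA1 encode ornithine carbamoyltransferase and a subunit of carbamoyl phosphate synthetase.

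Neighbours on the chromosome gave a mixed picture. Of 14 adjacent genes, 7 passed as positively and 1 as negatively related to the histidine gene beside it, with a median r of 0.249. Positive relations passed for 2.68 percent of all other genes with HIS3, 25.5 percent with HIS6 and 11.0 to 12.7 percent with the remaining 5. HIS7 and ARO4, which encodes an entry enzyme of aromatic synthesis, had r = 0.813, whereas HIS7 and ENP1 on the other side had 0.005. HIS7 had similar values with ARO3 (0.802) and TRP3 (0.842), which are not its neighbours. HIS6 had r = 0.789 with its neighbour FAF1 and 0.598 with RPB3. Chromosome 9, with HIS5 and HIS6, had a median over 0.4 in 1 segregant, and chromosome 2, with HIS7, in 4. A raised chromosome raises neighbours together, and r with neighbours was not recomputed without the chromosome median. HIS1 and GIP2 were the negative pair, with r = -0.382, where 9.08 percent of other genes passed as negatively related to HIS1. HIS3 and DED1 had r = -0.054 in the lower group.

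Some segregants had a whole chromosome apart from the rest. Segregant 14-6-d had a median of 0.62 over 207 genes of chromosome 9, which carries both HIS5 and HIS6, and it held the highest HIS5, 3.13, and the highest HIS6, 1.19. On chromosome 2, with 378 genes, 8-1-a had a median of 0.75 with HIS7 at 1.44. The medians there were 0.66 in 10-1-c, 0.82 in 13-2-c and 0.64 in 15-5-b, with HIS7 at 1.03, 0.54 and 0.73. For the other histidine genes the chromosome medians stayed between -0.16 and 0.10. After the chromosome median was subtracted from each gene, the median r over the 15 pairs of genes other than HIS3 was 0.621, against 0.612 before.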

How the data were processed

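RNA of 90 cultures was hybridised against 1 BY4716 pool on 180 arrays with 2 colours. The values are the authors' deposited log ratios of culture over pool, read as log2. Their base, background correction and dye normalization are not given in the sources used here. In base 2 the lowest value, -11.28, is 2482-fold, and in natural log it would be 78991-fold, above the 16-bit range of 65536. Array medians lay between -0.063 and 0.074. The strain markers set the direction, so their signs are no separate check of it. Signal intensities were not used here.

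Both arrays of a culture were averaged to 1 replicate, and HIS3, HIS6 and HIS7 lacked values on some parental arrays. Gene identifiers (5645 of 5645) matched RefSeq assembly R64, used for names and neighbours only. RM11 was compared with BY4716 in limma 3.58.1 (R 4.3.3), at an adjusted p under 0.05. The variance test used 5.28 error degrees of freedom. Mixtures were fitted with mclust 6.1.1 and called at a BIC gain over 10, means over 4 SDs apart and at least 20 percent in the smaller group. Correlations used genes measured in at least 80 percent of the segregants, with 2-sided permutation p from 100000 permutations in Python 3.11.15 and Benjamini-Hochberg adjustment. HIS3 was given no pooled correlation.

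Named genes were the 7 members, the 3 genes most like each, up to 5 genes sharing the upper HIS3 group, adjacent genes and members of 6 fixed lists. Members, lists and this rule were chosen with earlier results of these data known. ADE5,7 and ARG5,6 were not analysed here. Alternatives covered single dyes, centring, left-out cultures, quantile normalization, a replicate block, filters, first title numbers, the first principal component and the limits for clusters. The steps were tested on simulated data.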

Additional observations from a re-analysis of the deposited data

How the results depend on the processing

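The count of histidine genes passing between RM11 and BY4716 was 1, and it was 0 with median centring, quantile normalization, Cy3-titled arrays alone and the set with a value in all 4 parental cultures, an alternative that also tests more genes. With 1 culture left out it lay between 0 and 3, and the count over all genes between 199 and 1797, against 869. The count against the pool was 0, and between 0 and 1 with a culture left out. The count past the variance test was 4, between 2 and 4 with a culture left out (2 of 6 tested without BY4716 replicate 2, and 4 without either RM11 culture, where 3333 of 3333 and 3730 of 3731 genes passed), and 3 of 4 with Cy3-titled arrays alone. No histidine gene passed against the midpoint under any alternative (0 in each). HIS3 was called as 2 clusters with segregants on both arrays only (count 1) and with a smaller group of at least 10 percent (count 1), and its smaller group was 33.3 percent with Cy5-titled arrays alone. The cause of these changes was not tested.

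Replicate numbers could not be shown to pair the parental cultures, since there were 2 pairs and the correlation of their deviations was 0.189 over 3256 genes. With the replicate number as a block, 1 histidine gene passed, HIS5 with an adjusted p of 0.0468.

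The median r over pairs of genes other than HIS3 lay between 0.513 and 0.637 over the alternatives. For the 10 pairs without HIS6 r lay between 0.451 and 0.902 over 100 values, all past an unadjusted permutation p of 0.05. Among them, values within first title numbers were permuted without regard to the number. Signs turned for values that had not passed. Against the midpoint, HIS2 was at 0.006 with median centring and 0.001 with Cy3-titled arrays alone, and between -0.033 and 0.002 with a culture left out. HIS4 was at 0.011 with median centring and 0.016 with Cy3-titled arrays alone, and between -0.106 and 0.085 with a culture left out. The r of HIS6 without the first principal component was -0.008 with HIS1, 0.078 with HIS2 and 0.037 with HIS4. After subtraction of the chromosome median it was -0.05 with HIS1, -0.091 with HIS5 and -0.089 with HIS7. With HIS4 it was 0.055 on Cy3-titled arrays, with HIS5 -0.037 on Cy5-titled arrays, -0.034 as Spearman rho and -0.186 without 2 segregants, with HIS7 -0.012 on Cy3-titled arrays and -0.008 within title numbers, and with HIS3 -0.239 in its upper group. Parental differences are limited by 2 cultures per strain.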
